A study of Mus musculus with 36 samples.

Results

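A set of 1640 accessible chromatin regions was open in cultured mouse mesenchymal stem cells (MSCs) of 1 bone marrow site and 1 tissue outside the marrow, with no peak in the other 2 tissues. ATAC-seq, which maps DNA that the Tn5 transposase can reach, had given 1 peak list each for MSCs of femoral marrow (fBM-MSCs), vertebral marrow (vBM-MSCs), adipose tissue (A-MSCs) and lung (P-MSCs). The regions were chosen by these lists alone: a region of the marrow list with a −log10 q above 7 had to overlap, by at least 1 bp, a region of the adipose or lung list with a −log10 q above 7, and no line of the remaining 2 lists at any q. Of the 223053 regions above 7 counted over the 4 lists, 523 belonged to vBM-MSCs with A-MSCs (vBM+A), 111 to vBM-MSCs with P-MSCs (vBM+P), 551 to fBM-MSCs with A-MSCs (fBM+A) and 455 to fBM-MSCs with P-MSCs (fBM+P). Each pair was counted from its marrow list, of which it made up 1.03%, 0.219%, 0.971% and 0.801%. Since the peak values chose the regions, those values are given below as a description and were not tested.

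The cells came from 8-week-old C57BL6/J mice, for which no further allele or treatment is named, and all 4 tissues were taken from the same 3 mice. Marrow cells were released by crushing bone, whereas lung and adipose tissue were minced and digested with collagenase, so the marrow and non-marrow cells also differed in how they were freed. All were seeded on collagen-coated dishes in MesenCult medium to which MesenPure and a Rock inhibitor were added. They were used within 3 passages, with 3 lines prepared per tissue. The groups are therefore cultured, adherent cells and not cells measured in the tissue. For RNA, Smart-seq2 libraries of 2 vBM-MSC lines and of 3 lines of each other tissue were analysed here, with 19569650 to 40517739 expected counts each. For ATAC-seq, the labels assign each tissue's list to 6 samples (3 replicates in 2 runs), and the list carried no replicate values and no depth. The MSC surface markers Cd44, Itgb1 and the rest of that list summed to between 983 and 2336 TPM (the deposited level of a gene, corrected for transcript length and scaled to a fixed sum in each library) in every library, whereas Ptprc, which marks all white blood cells, was at most 0.35. Of the other MSC-negative markers, the endothelial Pecam1 was at most 3.84 TPM, but Cd34, found on blood stem cells and endothelium, ranged from 0.91 to 79.2. The 3 together summed to 10.3 to 79.2 TPM in fBM-MSCs and 1.19 to 7.87 in the other libraries.

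Most accessible regions that differ between related cell types lie away from gene starts, in enhancers, which are stretches of DNA that bind transcription factors and can act on a promoter many kilobases away. MSCs are stromal cells able to form bone, cartilage and fat, and the factors named most often at their enhancers bind short DNA words. AP-1, a dimer of FOS and JUN proteins, binds TGACTCA, which on the other strand reads TGAGTCA, and is prominent in growing and stress-exposed stromal cells. RUNX factors, of which RUNX2 is needed for bone formation, bind the word TGTGGT, or the form TGCGGT. TEAD factors, the DNA-binding partners of YAP and TAZ, bind CATTCC. The GATA factors bind AGATAA or, in another form, AGATAG, and likewise TGATAA or the form TGATAG. NFI factors bind a site that includes TTGGCA.

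The sequences at the summits of the regions that the results below turn on are printed here, each as 201 bases of the plus strand of GRCm38 (mm10) centred on the summit of the marrow list, 5′ to 3′. Capitals mark the AP-1, RUNX, TEAD, GATA, NFI and C/EBP letters (the last TTNNGCAA) on either strand. These words can share bases, and some C/EBP matches also hold an NFI match. The first lines are vBM+A regions near genes whose RNA was higher in both tissues of that pair.
S1pr3, chr13:51328395-51328595: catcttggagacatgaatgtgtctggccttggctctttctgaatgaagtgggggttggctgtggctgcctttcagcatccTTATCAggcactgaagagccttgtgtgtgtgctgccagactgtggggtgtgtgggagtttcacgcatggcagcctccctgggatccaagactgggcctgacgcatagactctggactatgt
Sfrp1, chr8:23440305-23440505: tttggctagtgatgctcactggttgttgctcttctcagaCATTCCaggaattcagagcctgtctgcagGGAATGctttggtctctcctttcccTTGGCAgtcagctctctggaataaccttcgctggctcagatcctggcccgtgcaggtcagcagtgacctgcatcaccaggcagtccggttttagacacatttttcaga
Scel, chr14:103515466-103515666: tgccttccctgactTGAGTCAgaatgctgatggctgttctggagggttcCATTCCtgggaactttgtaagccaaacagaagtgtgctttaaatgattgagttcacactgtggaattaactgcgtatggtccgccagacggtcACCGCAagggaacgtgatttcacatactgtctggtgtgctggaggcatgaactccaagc
The next line is the vBM+P region that was the strongest of its pair by the lower of its 2 −log10 q values.
Ppp4r4, chr12:103543488-103543688: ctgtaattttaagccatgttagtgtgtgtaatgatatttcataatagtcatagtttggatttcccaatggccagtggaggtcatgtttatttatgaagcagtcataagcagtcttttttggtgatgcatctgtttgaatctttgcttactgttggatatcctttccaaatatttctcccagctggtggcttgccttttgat
The fBM+A regions shown are some of the strongest of that pair (Kirrel3, Brinp3 and Kazn) and those inside Gdf6 and Hoxc13, where RNA followed the peaks.
Kirrel3, chr9:34568264-34568464: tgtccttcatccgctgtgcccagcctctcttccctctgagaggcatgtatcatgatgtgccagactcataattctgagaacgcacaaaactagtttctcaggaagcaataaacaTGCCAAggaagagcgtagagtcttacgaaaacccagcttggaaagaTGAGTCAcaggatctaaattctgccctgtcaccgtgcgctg
Brinp3, chr1:148051945-148052145: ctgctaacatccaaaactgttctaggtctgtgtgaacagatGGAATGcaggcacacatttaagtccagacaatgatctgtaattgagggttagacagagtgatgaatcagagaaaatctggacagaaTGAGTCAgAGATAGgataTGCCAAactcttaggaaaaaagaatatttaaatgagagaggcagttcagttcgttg
Kazn, chr4:142539410-142539610: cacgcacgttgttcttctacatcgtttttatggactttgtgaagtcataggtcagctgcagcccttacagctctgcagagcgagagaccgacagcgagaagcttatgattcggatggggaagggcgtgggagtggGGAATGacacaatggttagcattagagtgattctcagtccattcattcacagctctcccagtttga
Gdf6, chr4:9858979-9859179: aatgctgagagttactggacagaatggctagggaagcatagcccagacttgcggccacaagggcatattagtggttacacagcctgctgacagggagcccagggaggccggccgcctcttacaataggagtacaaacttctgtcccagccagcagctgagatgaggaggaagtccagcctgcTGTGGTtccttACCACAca
Hoxc13, chr15:102926292-102926492: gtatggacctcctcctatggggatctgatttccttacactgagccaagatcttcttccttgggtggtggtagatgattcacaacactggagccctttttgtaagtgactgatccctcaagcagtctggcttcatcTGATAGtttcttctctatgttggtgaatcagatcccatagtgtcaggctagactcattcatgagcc
The fBM+P regions shown are some of the strongest (Mctp1 and Itga1) and those near the genes with higher RNA in both of its tissues.
Mctp1, chr13:76358816-76359016: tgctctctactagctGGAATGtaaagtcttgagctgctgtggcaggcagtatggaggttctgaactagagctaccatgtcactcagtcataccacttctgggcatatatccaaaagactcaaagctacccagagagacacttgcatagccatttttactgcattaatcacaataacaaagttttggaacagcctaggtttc
Itga1, chr13:115572102-115572302: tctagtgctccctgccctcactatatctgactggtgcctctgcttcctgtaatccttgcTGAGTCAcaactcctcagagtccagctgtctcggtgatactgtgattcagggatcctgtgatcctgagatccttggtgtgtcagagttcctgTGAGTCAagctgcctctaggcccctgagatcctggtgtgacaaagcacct
Lingo2, chr4:36884293-36884493: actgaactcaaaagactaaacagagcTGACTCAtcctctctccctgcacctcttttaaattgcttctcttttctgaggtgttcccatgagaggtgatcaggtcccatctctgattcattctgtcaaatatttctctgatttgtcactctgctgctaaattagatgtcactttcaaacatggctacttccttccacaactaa
Lgals3, chr14:47367575-47367775: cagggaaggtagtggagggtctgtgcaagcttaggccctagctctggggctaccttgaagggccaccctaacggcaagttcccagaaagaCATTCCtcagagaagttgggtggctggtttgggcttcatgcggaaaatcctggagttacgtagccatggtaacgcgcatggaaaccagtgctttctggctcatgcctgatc
The Sfrp1 window holds 2 TEAD words and 1 NFI word, the Gdf6 window 2 RUNX words, and the Itga1 window 2 AP-1 words, whereas the Kazn and Mctp1 windows hold 1 TEAD word each and no AP-1 word. The Ppp4r4 window holds none of the 6 motifs. Of the Itga1 window, 76.1% is repeat-masked in the reference, where reads from several copies can be hard to place, although the authors kept unique alignments only.

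By the peak values that chose them, the regions were weak and alike in the 4 pairs. The median −log10 q was 10.003 in vBM-MSCs for vBM+A, 9.02 in vBM-MSCs for vBM+P and 10.01 in fBM-MSCs for both femoral pairs, and lay between 10.1 and 11.1 in the adipose and lung lists. The lowest value inside the threshold was between 7.13 and 7.14 in all pairs, and the highest outside it was between 6.28 and 6.33. Values between 7 and 8 were held by 157, 38, 163 and 139 regions in the same order of pairs, and a further 245, 84, 256 and 237 regions would have entered at a threshold of 6. Few regions were strong in both tissues: the lower of the 2 values passed 15 in 43, 6, 47 and 31 of them. Regions were short, with median widths of 376 to 404 bp, and 94.6% to 97.6% had a single summit. The summits of the 2 tissues lay within 100 bp of each other in 78.6% of vBM+A, 84.7% of vBM+P, 86.6% of fBM+A and 88.1% of fBM+P regions. Counted from the non-marrow list, the pairs held 515, 117, 544 and 451 regions. For scale, 1572 regions were shared by fBM-MSCs with vBM-MSCs only, and 1942 by A-MSCs with P-MSCs only, under the same rule.

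The regions lay far from gene starts, most of all those of fBM+P. Only 4.21% of vBM+A, 3.60% of vBM+P, 2.36% of fBM+A and 2.20% of fBM+P summits fell within 1 kb of a start, against 21.1% to 24.2% of all regions above 7 in the 4 lists. Regions found in 1 tissue alone were rarely at starts too, at 1.81% to 3.03%, and regions with a −log10 q up to 15 stood at 11.1% to 11.8%. Introns held 50.5%, 52.3%, 46.6% and 41.98%, and DNA between genes held 41.5%, 40.5%, 48.6% and 54.3%. The median distance to the nearest start was 27155 bp for vBM+A, 40950 bp for vBM+P, 35983 bp for fBM+A and 51783 bp for fBM+P, against 16124 to 19007 bp for all regions above 7 and 28903 to 45428 bp for those found in 1 tissue alone. Summits over 500 kb from any start made up 5.49% of fBM+P and 3.09% of fBM+A, 1.80% of vBM+P and 0.956% of vBM+A, against 0.870% to 1.29% of all regions. Most of the window was repeat-masked in 3.06%, 1.80%, 4.36% and 5.05% of the pairs' regions, against 2.13% to 3.46% of all.

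**Figure D1:**
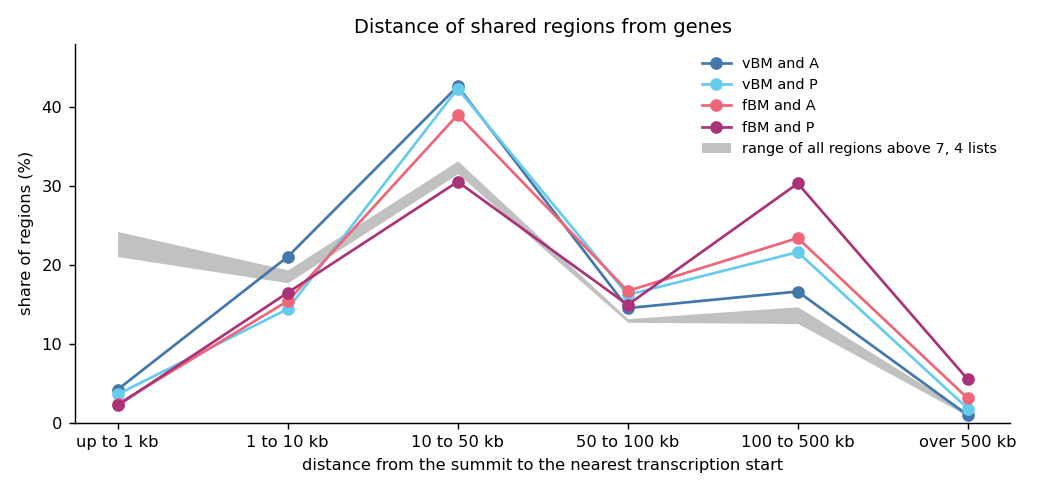
Share of regions (y axis, percent) by distance from the summit to the nearest gene start (x axis, binned) for the 4 pairs, with the range over all regions above 7 of the 4 lists as a grey band. The 4 pairs lie below the band within 1 kb, at 2.20% to 4.21%, and fBM+P reaches 30.3% between 100 and 500 kb.

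The 4 pairs differed most in AP-1 letters, which were found within 100 bp of the summit in 8.60% of vBM+A regions (45 of 523, exact binomial 95% interval 6.35% to 11.3%). The share was 24.3% for vBM+P (27 of 111, 16.7% to 33.4%), 37.0% for fBM+A (204 of 551, 33.0% to 41.2%) and 56.0% for fBM+P (255 of 455, 51.3% to 60.7%). These intervals did not overlap except that of vBM+P with that of fBM+A. They cover counting error only, and regions of 1 list are not replicates of a tissue. As a reference of like strength and position, regions of each list with a −log10 q up to 15 and beyond 1 kb of a start held AP-1 letters in 24.8% (vBM-MSCs), 27.3% (A-MSCs), 32.8% (fBM-MSCs) and 33.5% (P-MSCs). The vBM+A share was thus below, and the fBM+P share above, that of either of its own tissues. Among regions found in 1 tissue alone, the shares were 7.8% in vBM-MSCs, 18.9% in A-MSCs, 33.8% in fBM-MSCs and 37.9% in P-MSCs.

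TEAD letters showed another order. They were found in 32.9% of vBM+A (28.9% to 37.1%) and 28.8% of vBM+P regions (20.6% to 38.2%), but in 14.5% of fBM+A (11.7% to 17.7%) and 17.1% of fBM+P regions (13.8% to 20.9%), against 19.4% to 23.1% in the reference regions. Both vertebral pairs thus held more TEAD words than both femoral pairs, although the interval of vBM+P met that of fBM+P and that of the reference. Within 50 bp of the summit, the shares were 20.7% for vBM+A, 12.6% for vBM+P, 8.35% for fBM+A and 10.8% for fBM+P. The gap between vBM+P and fBM+P was thus small there. Regions found in 1 tissue alone held TEAD letters in 25.8% in vBM-MSCs, 28.3% in A-MSCs, 21.3% in P-MSCs and 14.7% in fBM-MSCs, so a low share with fBM-MSCs was not particular to the shared regions. RUNX letters set fBM+A apart, with 39.7% (35.6% to 44.0%) against 22.2% (18.7% to 26.0%) in vBM+A, 18.02% (11.4% to 26.4%) in vBM+P and 24.6% (20.7% to 28.8%) in fBM+P. The reference range for RUNX was 21.5% to 28.5%, and regions found in fBM-MSCs alone held RUNX letters in 41.0%. AP-1 and RUNX letters stood together in 74 fBM+A (13.4%), 55 fBM+P (12.1%), 8 vBM+A (1.53%) and 4 vBM+P regions (3.60%). Whether the 2 words met more or less often than their single shares imply was not tested.

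GATA letters were found in 27.7% of vBM+A, 26.1% of vBM+P and 29.8% of fBM+A regions and in 16.0% of fBM+P regions (12.8% to 19.7%), which lay below the reference range of 23.2% to 29.8%. Around the summits of the lung list the fBM+P share was 22.9% (104 of 455). NFI letters were most frequent in vBM+P, at 25.2% (17.5% to 34.4%), against 11.8% to 16.0% in the other pairs, although its interval met that of fBM+P (12.8% to 19.7%) and regions found in vBM-MSCs alone held NFI letters in 20%. C/EBP letters were found in 15.3% (12.3% to 18.7%) of vBM+A and 18.9% (12.1% to 27.5%) of vBM+P regions, and in 10.3% of fBM+A and 8.35% of fBM+P regions. FOX letters (TGTTTAC) were rare in all pairs, between 2.29% and 7.21%. The GC-rich KLF/SP word GGGCGG, typical of promoters, was found in 2.86% to 4.5% of the pairs' regions, where regions found in 1 tissue alone held it in 3.11% to 4.10% and the reference regions in 5.19% to 5.84%. None of AP-1, RUNX, TEAD or GATA letters was found in 33.7%, 27.0%, 22.5% and 20.2% of the 4 pairs. A match is a run of letters and not a measured binding site.

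**Figure D2:**
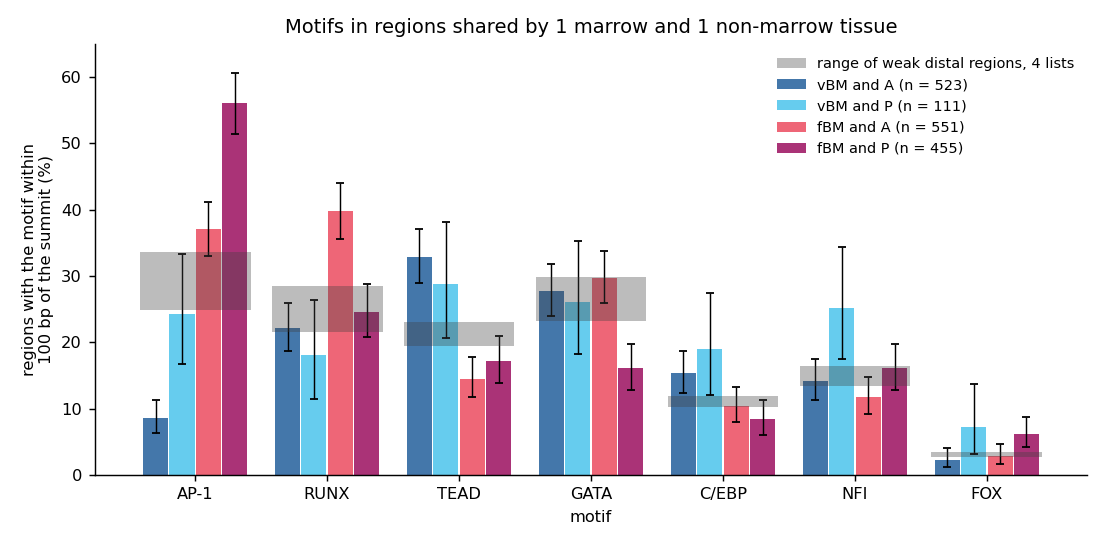
Share of regions (y axis, percent) with the letters of each motif within 100 bp of the summit, for the 4 pairs, with exact binomial 95% intervals as error bars and the range over the reference regions of the 4 lists as grey bands. AP-1 runs from 8.60% in vBM+A to 56.0% in fBM+P, TEAD is higher in the vBM pairs and RUNX is highest in fBM+A.

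Of 59 tested genes on the list of factors for these and other motifs, 16 were higher in vBM+A (where 13.6% of all genes tested were) and 7 in fBM+P (11.5%), and 12 were higher in vBM+P (10.2%) and 7 in fBM+A (10.1%), in edgeR contrasts of the 2 tissues of a pair with the other 2. Fosl1, a FOS-family member, had 64.5, 58.1 and 54.0 TPM in fBM-MSCs, 81.6 and 104 in vBM-MSCs, 57.4, 77.6 and 83.0 in A-MSCs and 86.6, 87.8 and 82.9 in P-MSCs, and fBM+P, with the most AP-1 letters, held the lowest mean level and the second-highest. Neither contrast of Fosl1 passed (adjusted p = 0.0719 and 0.0522). Fos itself was at 23.9 and 24.7 TPM in vBM-MSCs and 6.42, 7.49 and 7.16 in A-MSCs, above 1.44, 1.90 and 3.04 in fBM-MSCs and 4.13, 5.30 and 5.99 in P-MSCs, and did not overlap between the pairs. Its log2 difference, vBM+A against fBM+P, was 2.05 (SE 0.19, edgeR adjusted p = 4.65e-05), in the pair with fewest AP-1 letters. Runx1 and Runx2 were both higher in fBM+A, which held the most RUNX letters, than in vBM+P, by log2 differences of 0.53 (SE 0.12, adjusted p = 0.0104) and 0.87 (SE 0.23, adjusted p = 0.0218). Neither passed with limma-trend on log2(TPM + 1) (adjusted p = 0.0777 and 0.0538), and Runx2 did not pass without vBM-MSC replicate 1 (adjusted p = 0.0757) or P-MSC replicate 1 (0.0535). Neither gene was high in both tissues of fBM+A. Runx1 had its highest mean in A-MSCs (7.92 TPM), and its mean in fBM-MSCs (4.89) was below that in vBM-MSCs (5.14). It was also higher in vBM+A than in fBM+P (0.57, SE 0.12, edgeR adjusted p = 0.00534). Runx2 was highest in fBM-MSCs, at 5.40, 7.89 and 12.5 TPM, but its mean in A-MSCs (3.22) was below that in vBM-MSCs (3.55). Runx3, at 1.43, 3.34 and 7.67 TPM in fBM-MSCs, was near 0 in A-MSCs (0, 0 and 0.03) and P-MSCs (0, 0.10 and 0). Tead1 was at 3.73, 2.68 and 2.08 TPM in fBM-MSCs and between 4.73 and 6.64 in the other 8 libraries. Its difference of 0.50 towards vBM+A (SE 0.14, adjusted p = 0.024) did not pass when any of 4 libraries was left out (fBM-MSC replicate 2, vBM-MSC replicate 1, A-MSC replicate 1 or P-MSC replicate 1, adjusted p 0.0521 to 0.0891). Tead2 had 27.7, 28.2 and 25.9 TPM in P-MSCs and 6.18 to 17.3 elsewhere, and Tead4 had 8.41, 5.67 and 7.03 in P-MSCs and 0.59 to 4.02 elsewhere. Neither passed towards vBM+A (0.01, adjusted p = 0.987, and 0.14, adjusted p = 0.742), and both were higher in vBM+P than in fBM+A (0.73, adjusted p = 0.00329, and 1.28, adjusted p = 0.00851).

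RNA was not used to choose the regions, so it could be tested. Each region was linked to the gene with the nearest start if its summit lay within 100 kb of it, which linked 431 vBM+A regions to 419 genes, 85 vBM+P regions to 85 genes, 405 fBM+A regions to 393 genes and 292 fBM+P regions to 284 genes. A contrast of the mean of a pair's 2 tissues against the mean of the other 2 was fitted with edgeR to all 12509 genes with enough reads. The pairs vBM+A and fBM+P are the 2 sides of one contrast, as are vBM+P and fBM+A, and all 4 use the same 11 libraries, so their results are not independent. At an adjusted p under 0.05, 1696 genes were higher in vBM+A and 1436 in fBM+P, and 1273 were higher in vBM+P and 1267 in fBM+A. On log2(TPM + 1) with limma-trend, the splits were 1486 against 2080 and 2314 against 949, with the median of all genes shifted to −0.08 and 0.11.

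Genes near the regions were called higher in the matching pair more often than genes at large, with the highest share for vBM+A. Of 259 tested genes linked to vBM+A regions, 78 were higher in vBM+A (30.1%), against 13.6% of all genes tested, and 14 were lower (5.41% against 11.5%). For vBM+P it was 14 of 52 (26.9% against 10.2%), with 4 lower (7.69% against 10.1%). For fBM+A it was 37 of 222 (16.7% against 10.1%), with 16 lower (7.21% against 10.2%). For fBM+P it was 31 of 155 (20% against 11.5%), with 19 lower (12.3% against 13.6%). Genes near any region above 7 of the marrow list stood at 13.8%, 10.5%, 10.4% and 11.7%, close to the background, and genes near regions found in that marrow tissue alone at 18.02%, 12.4%, 13.2% and 13.1%. Most of the linked genes tested were not called in either direction. On the limma-trend scale the 4 shares were 26.6%, 32.7%, 12.6% and 23.9%, against 11.9%, 18.5%, 7.59% and 16.6% of all genes. The other genes linked could not be tested because they had too few reads or were not among the 24411 genes measured. In whole cultures, fewer cells of a type and less RNA per cell cannot be told apart.

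The size of the shift was small for most linked genes. The median log2 difference towards the pair was 0.20 for vBM+A, 0.11 for vBM+P, 0.10 for fBM+A and 0.10 for fBM+P, where that of all genes was between −0.01 and 0.01. Differences above 0 made up 69.5%, 63.5%, 59.9% and 57.4%, against 48.8%, 50.7%, 49.3% and 51.2% of all genes. Within 20 kb of a start, the share called higher was 33.1% for vBM+A and 40.9% for vBM+P (of 22 genes), 18.2% for fBM+A and 16.9% for fBM+P. Genes linked to fBM+A regions were called higher in vBM+A in 20.3% (against 13.6% of all) and in fBM+A in 16.7% (against 10.1%), with A-MSCs common to both. Genes linked to fBM+P regions were called higher in vBM+P in 18.1% (against 10.2% of all) and in fBM+P in 20% (against 11.5%), with P-MSCs common to both.

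A contrast of means can be passed by a gene that is high in 1 tissue of the pair alone. In a stricter form, a gene had to be higher in each of the 2 tissues than in each of the other 2, in 4 comparisons of the same fit. This was met by 13 of the 259 genes linked to vBM+A regions (5.02%), against 1.14% of all genes tested. It was met by 0 of 52 for vBM+P (against 0.288%), 3 of 222 for fBM+A (1.35% against 0.312%) and 2 of 155 for fBM+P (1.29% against 0.352%). For vBM+P the count without tests, in which both tissues of the pair simply had the 2 highest mean levels, was 9 of 52 (17.3%), against 17.1% of all genes tested.

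**Figure D3:**
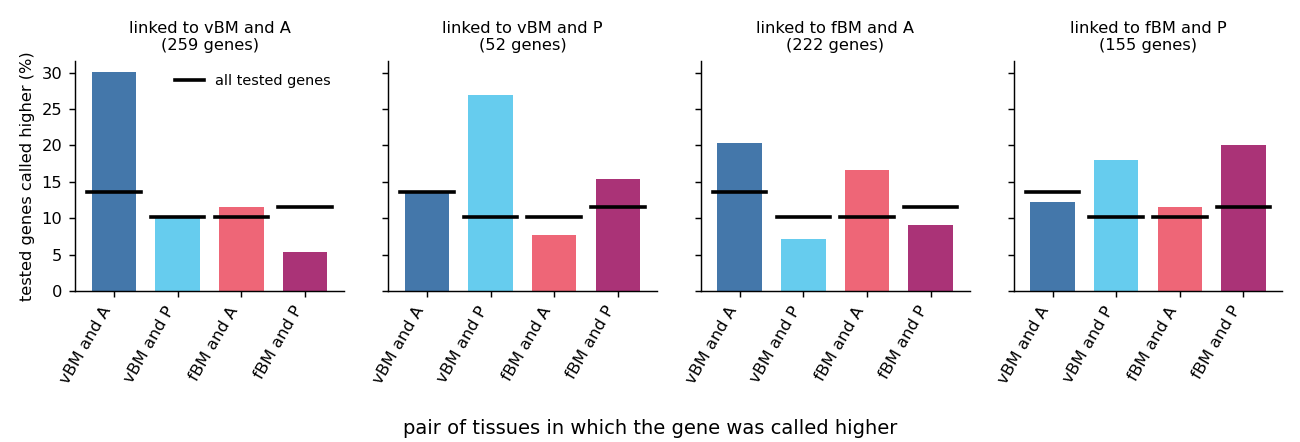
Share of tested linked genes (y axis, percent) called higher by edgeR in each of the 4 pairs, in 1 panel per set of linked genes, with black lines at the share of all genes tested. The matching pair has the highest bar for vBM+A (30.1%), vBM+P (26.9%) and fBM+P (20%), whereas genes linked to fBM+A regions reach 20.3% in vBM+A and 16.7% in fBM+A. The black lines differ by pair, at 13.6% in vBM+A, 10.2% in vBM+P, 10.1% in fBM+A and 11.5% in fBM+P. Bar heights alone therefore do not rank the pairs.

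Of the 13 genes linked to vBM+A regions that met the stricter form, the largest changes were those of Slc1a6, S1pr3, Scel, Sfrp1 and Serping1. S1pr3 encodes a receptor for the lipid sphingosine 1-phosphate, and its region at chr13:51328246-51328765, between genes and 80.1 kb upstream of the start, was among the strongest of the pair (−log10 q 24.7 in vBM-MSCs and 82.5 in A-MSCs). S1pr3 RNA was at 35.8 and 26.8 TPM in vBM-MSCs and 53.6, 37.6 and 49.9 in A-MSCs, against 5.45, 4.43 and 6.21 in fBM-MSCs and 0.39, 0.36 and 0.48 in P-MSCs. All 5 libraries of the pair lay above all 6 others, and the log2 difference was 4.77 (SE 0.17, edgeR adjusted p = 7.38e-08). S1pr3 was also linked to an fBM+A region and called higher in fBM+A (2.25), with fBM-MSCs above P-MSCs.

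Sfrp1, a secreted inhibitor of Wnt ligands, carried its region in an intron, chr8:23440088-23440655, 28.9 kb downstream of the start. Its RNA was at 21.0 and 26.8 TPM in vBM-MSCs and 11.5, 20.1 and 20.2 in A-MSCs, against 0.78 to 1.85 in fBM-MSCs and 1.93, 1.18 and 0.78 in P-MSCs. The groups did not overlap, with a difference of 4.04 (SE 0.28, edgeR adjusted p = 6.71e-06). Of 3 Wnt pathway genes linked to vBM+A regions, Sfrp1 rose, whereas Sfrp2 (1.21, adjusted p = 0.364) and Wnt7b (adjusted p = 0.219, listed at 0 in P-MSCs) did not pass. Of the whole Wnt list of 32 tested, 7 were higher in vBM+A and 4 lower, where 13.6% and 11.5% of all genes were.

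Slc1a6, a glutamate transporter, carried 2 regions, the stronger in an intron 2.37 kb from the start. Its transcript reached 175 and 99.0 TPM in vBM-MSCs and 52.2, 61.2 and 63.5 in A-MSCs, against 0.40, 0.20 and 0.62 in fBM-MSCs and 7.34, 5.29 and 6.54 in P-MSCs. This was the largest change of a named gene in the pair, 5.87 (SE 0.25, edgeR adjusted p = 3.69e-07), and P-MSCs lay above fBM-MSCs without reaching the pair. Serping1, the inhibitor of the first complement component, had its region across the promoter, chr2:84774630-84775091. Its RNA was at 26.8 and 54.3 TPM in vBM-MSCs and 23.5, 32.7 and 44.6 in A-MSCs, against 3.63, 3.54 and 5.10 in fBM-MSCs and 2.56, 1.49 and 2.54 in P-MSCs. The difference was 3.68 (SE 0.24, edgeR adjusted p = 4.96e-06), and the groups did not overlap.

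Others of the 13 genes were Slit3, a guidance ligand, and Scel, a protein of the cornified envelope. Slit3 had a −log10 q of 44.6 in vBM-MSCs at a region 35.9 kb upstream, and its RNA was at 15.6 and 17.7 TPM in vBM-MSCs and 7.45, 9.45 and 12.8 in A-MSCs, against 2.57, 2.14 and 4.87 in fBM-MSCs and 0.87, 0.61 and 0.73 in P-MSCs (3.13, SE 0.23, adjusted p = 1.33e-05). Scel differed by 4.57 but stayed low, at most 6.84 TPM. Fstl1, a secreted glycoprotein, rose by 0.83 (SE 0.07, adjusted p = 1.86e-05), from 163 to 226 TPM in the 6 libraries of fBM-MSCs and P-MSCs to 258 to 423 in the pair. Palld, Hspb8, Msrb3 and Xbp1 also met the stricter form, with differences of 0.74 to 1.15.

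Other genes near vBM+A regions passed the contrast of means but not the stricter form. Igf1, the growth factor, carried 2 regions, of which chr10:87769406-87769807, 88.7 kb upstream, was also among the strongest of the pair (−log10 q 39.0 in vBM-MSCs and 29.9 in A-MSCs). Igf1 RNA was at 185 and 67.0 TPM in vBM-MSCs and 38.1, 34.6 and 31.6 in A-MSCs, against 20.4, 6.11 and 4.78 in fBM-MSCs and 16.4, 14.0 and 19.1 in P-MSCs, so the 2 vertebral libraries differed widely from each other. The difference was 2.42 (SE 0.39, edgeR adjusted p = 0.00136). Serpinf1, which encodes the secreted protein PEDF, had a promoter region and 1086 and 1077 TPM in vBM-MSCs and, in A-MSCs, 596, 561 and 557. Its level was in the same range in fBM-MSCs (587, 784 and 1113) and low only in P-MSCs (87.9, 46.4 and 72.5), although the contrast was passed (1.80, adjusted p = 7.64e-05). Trim30d, also with a promoter region, was high in vBM-MSCs alone (4.59 and 3.48 TPM, against at most 1.18 elsewhere; 2.22, adjusted p = 0.0117).

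Of 6 tested matrix genes linked to vBM+A regions, 4 were called higher and none lower, and of the whole list of 62 tested 27 were higher, where 13.6% of all genes were, and 4 lower, where 11.5% were. Without vBM-MSC replicate 2 these were 20 and 8, and without any other single library 20 to 31 and 1 to 4. Col14a1, a fibril-associated collagen, was at 1.28 and 1.46 TPM in vBM-MSCs and 0.41, 0.33 and 0.36 in A-MSCs, against 0.08, 0 and 0 and 0.10, 0 and 0.02 in fBM-MSCs and P-MSCs. Its difference of 4.56 (adjusted p = 0.00541) rested on few reads in the low tissues and became 6.99 when fBM-MSC replicate 1 was left out and 5.54 without P-MSC replicate 1. The calls of Col4a2 (0.59, adjusted p = 0.0287) and Col5a1 (0.42, adjusted p = 0.0273) were each lost when any of 5 libraries was left out, at adjusted p from 0.0608 to 0.122 and from 0.0523 to 0.0986. The region assigned to Col4a2 lies in an intron of its neighbour Col4a1, and the exons of the 2 genes overlap in the annotation.

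A region across Krt8, a keratin of mesothelial and epithelial cells, was present in vBM-MSCs and A-MSCs, but its RNA was at 11.1, 21.0 and 11.2 TPM in A-MSCs and listed at 0 in every library of fBM-MSCs and vBM-MSCs. Myh11, the smooth muscle myosin, was at 6.24, 8.38 and 5.28 TPM in A-MSCs and 3.41, 5.05 and 4.38 in P-MSCs and at most 0.79 elsewhere. It was called higher in vBM+A (2.11, adjusted p = 0.00121) although vBM-MSCs were low. The 8 mesothelial markers summed to 120 to 171 TPM in A-MSCs, 76.2 to 99.1 in P-MSCs, 18.9 to 23.9 in vBM-MSCs and 2.32 to 14.7 in fBM-MSCs. Of these, Upk1b reached 95.5 TPM and Krt19 59.8. The 8 muscle markers summed to 1041 to 1281 in A-MSCs, 719 to 789 in P-MSCs, 56.5 to 497 in vBM-MSCs and 9.38 to 20.6 in fBM-MSCs, with the myogenic factors Myod1, Myog, Pax7 and Myf5 at 0 throughout. Acta1, at up to 1028 TPM, and Des, at up to 245, carried this sum, whereas Myh11 was at most 8.38 and Ckm at most 0.23. The 8 adipocyte markers summed to 3.20 to 4.60 TPM in P-MSCs and 22.6 to 167 in the other libraries, with Lep at 0 throughout. Fabp4 reached 140 TPM, whereas Adipoq was at most 14.6, Cfd at most 5.97 and Plin1 at most 1.97. The 8 endothelial markers summed to 6.73 to 60.5 in A-MSCs, 3.98 to 9.56 in P-MSCs, 1.57 to 5.67 in vBM-MSCs and 0.74 to 2.12 in fBM-MSCs. Emcn reached 49.5 TPM, whereas Esam was at most 5.17, Cdh5 at most 1.05 and Vwf at most 0.05. The 10 macrophage markers summed to 40.5 to 52.1 in fBM-MSCs, 24.8 to 46.9 in vBM-MSCs, 18.9 to 27.7 in A-MSCs and 14.7 to 16.9 in P-MSCs, with Fcgr1 at 0 throughout. Lyz2 reached 38.6 TPM and Cd68 18.5, whereas Adgre1, Itgam, Mrc1 and Tyrobp were at most 0.8. The 9 epithelial markers summed to 52.4 to 60.7 in P-MSCs, 34.9 to 49.0 in A-MSCs and 2.18 to 12.9 in marrow MSCs, and the 8 erythroid markers to at most 1.67 in any library. Of the epithelial list, Krt19, also on the mesothelial list, reached 59.8 TPM and Krt18 27.05. Epcam was at most 0.41 and Cdh1 at most 0.22, and Krt5, Sftpa1 and Sftpc were at 0 throughout. The part of other cells in these results was not tested. Regions of the pair also lay near genes that were lower there: Itgb1, an integrin subunit, differed by −0.34 and Sema5a by −1.12, and both calls were lost in several fits without 1 library (8 for Itgb1, adjusted p 0.0553 to 0.143, and 4 for Sema5a, 0.0503 to 0.0585), with Sema5a at −1.84 without vBM-MSC replicate 2. Cxcl12, the chemokine that retains blood stem cells in marrow, had a region 68.6 kb upstream and did not pass (−0.13, adjusted p = 0.61).

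Of the 14 genes near vBM+P regions that were higher in that pair, none met the stricter form. Crct1, a small cysteine-rich protein gene of the epidermal cluster, had its region at the start and 686 and 977 TPM in vBM-MSCs and 108, 103 and 111 in P-MSCs. It was at 7.02, 6.42 and 8.84 TPM in A-MSCs and 75.5, 25.4 and 5.50 in fBM-MSCs. The groups did not overlap, and the difference was 4.06 (SE 0.48, edgeR adjusted p = 0.000368), or 4.69 without fBM-MSC replicate 1.

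Hoxb5, a homeobox gene of the middle of the HoxB cluster, lay 1.59 kb from a vBM+P region at chr11:96301720-96302146, in an intron of Hoxb5os. It had 4.70 and 4.19 TPM in vBM-MSCs and 7.59, 10.3 and 8.22 in P-MSCs, 1.23, 2.11 and 2.14 in A-MSCs and 0, 0.19 and 0 in fBM-MSCs. All libraries of the pair lay above all others, and the difference was 4.0 (SE 0.49, adjusted p = 0.000436), or 6.23 without fBM-MSC replicate 2, the only fBM-MSC library with a value above 0. Because Smart-seq2 keeps no strand, reads of Hoxb5 and the antisense Hoxb5os cannot be told apart where they overlap. Ano5, with a region at its start, passed towards vBM+P (adjusted p = 0.0388) with 1.67 and 0.45 TPM in vBM-MSCs and at most 0.04 elsewhere. It lost the call without any of 5 libraries (fBM-MSC replicate 1, each of the A-MSC replicates or P-MSC replicate 3), of 9 such fits that tested it. Its difference of 5.01 ran from 3.18 to 7.13 in these fits. Some of the strongest regions of the pair lay near genes with little or no RNA, Ppp4r4 and Ppp1r3a, or 1117673 bp from Basp1. Tgfbr2, a TGF-beta receptor, was lower in vBM+P (−0.39, adjusted p = 0.014). Cdh11, a cadherin of mesenchymal cells, did not pass (0.44, adjusted p = 0.051).

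In fBM+A, the 3 genes that met the stricter form were Hoxc13, Gdf6 and Adgrd1. Hoxc13, a homeobox gene at the 5′ end of the HoxC cluster, carried an intronic region, chr15:102926210-102926606. Its RNA was at 6.89, 9.57 and 5.35 TPM in fBM-MSCs and 3.12, 2.35 and 4.09 in A-MSCs, against 0.49 and 1.23 in vBM-MSCs, and was listed at 0 in all P-MSC libraries. The 6 libraries of the pair lay above the other 5 (edgeR adjusted p = 8.57e-05), and since P-MSCs were at 0 no fold is given.

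Gdf6, a ligand of the BMP family, carried an intronic region at chr4:9858854-9859298, 14.7 kb from its start, with the modest −log10 q of 8.07 in fBM-MSCs and 7.24 in A-MSCs. Its RNA was at 15.2, 20.6 and 24.2 TPM in A-MSCs and 0.31, 0.79 and 1.18 in fBM-MSCs, against 0 and 0.16 in vBM-MSCs and 0, 0.01 and 0.06 in P-MSCs. The groups did not overlap, although A-MSCs lay far above fBM-MSCs. The difference was 6.51 (SE 0.59, adjusted p = 8.57e-05), or 9.36 without vBM-MSC replicate 2 and 7.38 without P-MSC replicate 3. Adgrd1, an adhesion receptor, had a region in an intron 95.3 kb from its start and 22.5, 17.1 and 35.5 TPM in A-MSCs and 1.24, 1.19 and 1.65 in fBM-MSCs, against at most 0.46 in the other libraries (4.14, SE 0.27, adjusted p = 1.6e-05).

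Other fBM+A links did not meet the stricter form. Wt1, a transcription factor of mesothelial cells, had a region 47.9 kb downstream of its start that was strong in A-MSCs (−log10 q 54.8) and weak in fBM-MSCs (9.03), and its RNA was at 10.6, 14.9 and 11.7 TPM in A-MSCs and listed at 0 in all 8 other libraries. A region at the start of Hoxd11 met RNA of at most 0.12 TPM. Strong regions of the pair lay in an intron of Kirrel3 (−log10 q 39.0 and 40.6) and 1554358 bp from Brinp3 (43.1 and 50.5), both with an AP-1 word within 100 bp of the summit, and 300109 bp from Kazn (37.6 and 93.9), with a TEAD word and no AP-1 word. Kirrel3 (0.50, adjusted p = 0.425) and Kazn RNA (0.73, adjusted p = 0.0619) did not pass, and Brinp3 had too few reads to test. Hhipl1 had a region 0.849 kb upstream of its start and passed (1.83, SE 0.32, adjusted p = 0.0032), with 2.69, 3.02 and 2.68 TPM in A-MSCs and 1.41, 2.49 and 2.13 in fBM-MSCs, but vBM-MSCs at 0.56 and 1.45 overlapped the latter. Sox9, a factor needed for cartilage, passed towards fBM+A (0.86, adjusted p = 0.00671) with P-MSCs low (2.87, 1.53 and 2.27 TPM) and vBM-MSCs at 11.6 and 12.3, above both tissues of the pair. Igf1 also lay near an fBM+A region, 65.7 kb upstream, and was lower in that pair (−1.25, adjusted p = 0.0384), a call lost without any of 8 libraries (adjusted p 0.0622 to 0.195, the highest without vBM-MSC replicate 1). Il33, the alarmin cytokine, had 185 TPM in fBM-MSC replicate 1 and at most 1.18 in any other library, and did not pass.

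In fBM+P, Lgals3, which encodes the sugar-binding protein galectin-3, had a region 6.18 kb upstream of its start, chr14:47367509-47367825. The transcript was at 1009, 863 and 1116 TPM in fBM-MSCs and 213, 218 and 205 in P-MSCs, against 77.7 and 171 in vBM-MSCs and 115, 97.5 and 109 in A-MSCs. The groups did not overlap, although fBM-MSCs stood far above P-MSCs, and the difference was 1.93 (SE 0.16, edgeR adjusted p = 1.95e-05). Lingo2, a leucine-rich repeat membrane protein, had an intronic region that was weak in fBM-MSCs (−log10 q 7.14) and strong in P-MSCs (31.2). It had 0.71, 1.82 and 1.19 TPM in fBM-MSCs and 3.20, 4.44 and 2.28 in P-MSCs, against 0 and 0.12 in vBM-MSCs and 0, 0.14 and 0 in A-MSCs (5.16, SE 0.85, adjusted p = 0.00159, or 7.98 without vBM-MSC replicate 2 and 7.70 without A-MSC replicate 2).

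Masp1, a protease of the lectin complement pathway, had a promoter region, and its RNA was at 12.2, 16.0 and 11.8 TPM in fBM-MSCs and 18.1, 14.2 and 14.8 in P-MSCs. It was also present in vBM-MSCs (6.23 and 10.9) and nearly absent from A-MSCs (0.51, 0.20 and 0.34), so the call (3.0, SE 0.22, adjusted p = 1.02e-05) turned mostly on A-MSCs. Runx1 had an fBM+P region across one of its starts, chr16:92825791-92826300, yet its RNA was lower in fBM+P (−0.57, SE 0.12, adjusted p = 0.00534), with 6.62, 7.91 and 9.22 TPM in A-MSCs and 4.0 to 5.86 elsewhere. Ptch1, the Hedgehog receptor, had the most linked regions of any gene, 3, and did not pass (−0.41, adjusted p = 0.617). Itga1, the integrin subunit with the nearest start to one of the strongest fBM+P regions, 470238 bp away, was lower in fBM+P (−2.15, adjusted p = 0.000628), with 6.35 and 4.92 TPM in vBM-MSCs and 3.48, 3.81 and 3.59 in A-MSCs against at most 1.88 elsewhere. Other strong fBM+P regions lay 25.2 kb upstream of Mctp1 (−log10 q 25.9 in fBM-MSCs and 94.0 in P-MSCs) and 24.2 kb upstream of Map2 (24.6 and 29.9). Neither held an AP-1 word, and Map2 RNA did not pass (2.55, adjusted p = 0.0735) while Mctp1 had too few reads to test. Map2 was also linked to a vBM+P region and was called higher in vBM+P (5.0), though not by the stricter form. Inhba, a subunit of activin, had a region 3.90 kb upstream and was lower too (−1.0, adjusted p = 0.00352).

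**Figure D4:**
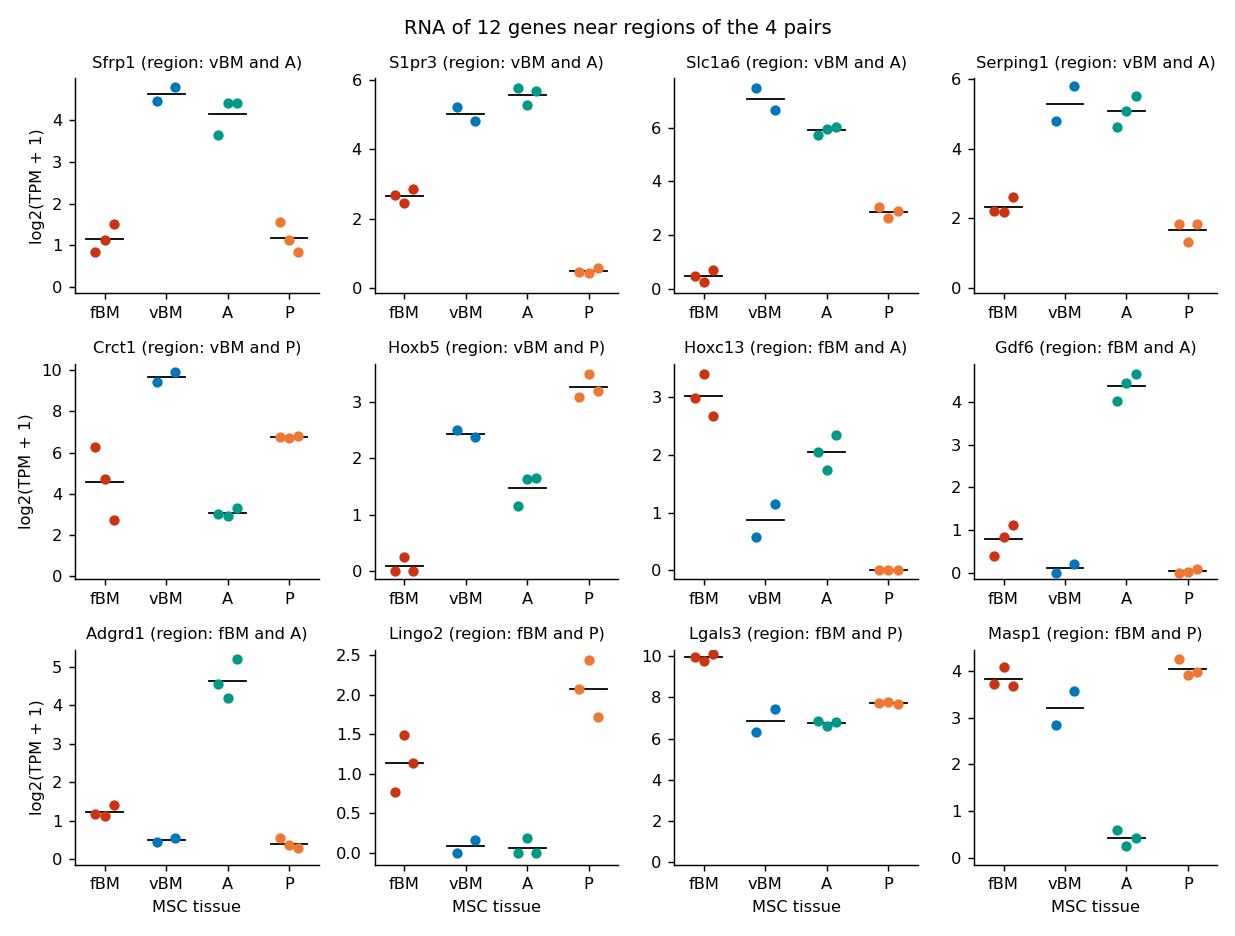
Level of 12 linked genes in every RNA library, as log2(TPM + 1) on the y axis, by tissue on the x axis, with points for libraries and lines for the tissue means. Sfrp1, S1pr3, Slc1a6 and Serping1 are high in vBM-MSCs and A-MSCs only, whereas Masp1 is low in A-MSCs alone and Gdf6 and Adgrd1 are far higher in A-MSCs than in fBM-MSCs.

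Each of 3 Hox clusters carried such regions. Regions near Hoxb9 and Hoxb7 belonged to vBM+A, that near Hoxb5 to vBM+P, and those at Hoxc13 and Hoxd11 to fBM+A, while no Hox gene was linked to an fBM+P region. Of 26 Hox genes tested, 14 were higher in vBM+A and 0 in fBM+P, and 7 were higher in vBM+P and 12 in fBM+A. The shares of all genes tested were 13.6%, 11.5%, 10.2% and 10.1% in this order of pairs. With limma-trend the Hox counts were 10, 1, 10 and 11, where the shares of all genes were 11.9%, 16.6%, 18.5% and 7.59%. Hoxb9 was at 12.3 and 16.0 TPM in vBM-MSCs and 4.09, 7.64 and 4.89 in A-MSCs, against 3.28, 1.13 and 0 and 1.47, 3.67 and 2.33 in fBM-MSCs and P-MSCs. Its call (2.31, adjusted p = 0.0277) was lost without any of 5 libraries, at adjusted p from 0.0577 to 0.0686, and its difference was 3.01 without fBM-MSC replicate 1. Hoxb7, with 16.3, 20.2 and 19.7 TPM in P-MSCs and 15.1, 20.7 and 15.5 in A-MSCs, did not pass (1.58, adjusted p = 0.0674). Of 44 tested genes of the BMP and TGF-beta pathway, 12 were higher in vBM+A, where 13.6% of all genes were. In each of the other pairs 6 were higher, where 10.1% to 11.5% of all genes were. With limma-trend there were 10 in vBM+A, 10 in fBM+P, 13 in vBM+P and 5 in fBM+A, beside the limma-trend shares of all genes just given. Without fBM-MSC replicate 3 there were 10 each in vBM+P and fBM+A, of 43 tested. The linked ones called were Fstl1, Tgfbr2, Gdf6 and Inhba.

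Some genes lay near regions of several pairs. The pairs vBM+A and fBM+A had 11 linked genes in common (2.63% and 2.80% of theirs), among them Igf1 and S1pr3. The pairs fBM+A and fBM+P had 18 in common (4.58% and 6.34%), among them Inhba, Kirrel3 and Pde4b, while vBM+P and fBM+A had none. The pairs vBM+P and fBM+P had 7 in common (8.24% and 2.46%), and the other combinations 6 or 7. Within a pair, 12 genes of vBM+A, 12 of fBM+A and 6 of fBM+P were linked to 2 regions and the remaining ones to a single region, except Ptch1.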

How the data were processed

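The authors aligned paired Smart-seq2 reads with STAR inside RSEM to mm10 and deposited, per gene, an expected count that is not normalized. They also deposited TPM, which RSEM corrects for transcript length and scales to the same sum in all libraries. ATAC-seq reads were trimmed (Trim Galore), aligned (Bowtie, unique hits kept) and cleared of duplicates (Picard) by the authors, who shifted them for the cut of Tn5 and called peaks with MACS2. One list per tissue was used here, which the labels assign to all samples of that tissue. Per peak, the deposited lists give the fold enrichment, as a ratio, the −log10 q and the summit offset in bases. Tool versions are not given in the sources used here. Without replicate peaks, regions were not tested and shares carry exact binomial 95% intervals for counting error only.

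Lines with the same coordinates were merged into regions on chromosomes 1 to 19. Summits were placed against curated RefSeq transcripts of GRCm38, whose coordinates are those of mm10, as promoter (within 1 kb of a start), exon, intron or intergenic, and linked to the gene with the nearest start within 100 kb. Motif letters were searched within 100 bp of the summit on both strands.

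After rounding of the expected counts, edgeR 4.0.16 under R 4.3.3 tested genes (quasi-likelihood test, two-sided, TMM, Benjamini-Hochberg adjustment) in 1 model of the 4 tissues over 11 libraries, for the 12509 genes that reached a CPM of 1 in 2 or more libraries. The vBM-MSC library of replicate 3 was not analysed here. No source used says which libraries came from the same mouse, so they were treated as independent. On simulated data both the test and the motif search recovered changes that were planted. Alternatives were DESeq2 1.42.0, limma 3.58.1 on log2(TPM + 1), other size factors, no filter, a replicate block, other thresholds and distances, and each library left out. Python 3.11.15 was used for the regions.

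Named genes were, per pair, up to 5 called genes with a region within 1 kb of a start, the 3 genes with most regions, the 3 strongest regions outside chromosome 18, up to 5 linked genes by the stricter form and up to 3 linked genes per gene list. The regions, lists and tests were chosen with earlier results of these data known. A few items under these rules are not reported here.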

Additional observations from a re-analysis of the deposited data

How the results depend on the processing

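A −log10 q above 15 in both tissues left 43 vBM+A, 6 vBM+P, 47 fBM+A and 31 fBM+P regions, and allowing weak peaks of the other 2 tissues gave 2387, 1023, 2235 and 1962. At the stricter threshold the share of linked genes called higher was 35% for vBM+A (20 genes tested), 12.5% for fBM+A (16 tested), 0 for vBM+P (1 tested) and 0 for fBM+P (11 tested). The genes that differed numbered 3132 for vBM+A against fBM+P and 2540 for vBM+P against fBM+A. Leaving out 1 library gave 2031 to 3672 and 1805 to 2818, the lowest of the first without vBM-MSC replicate 1, and linked shares of 24.8% to 32.2%, 23.1% to 30.8%, 12.7% to 19.6% and 15.6% to 25.2%, where those of all genes were 9.55% to 15.1%, 7.01% to 11.2%, 7.45% to 11.5% and 6.77% to 14.4%. For fBM+P both ends came from the vertebral libraries, 15.6% against 6.77% without vBM-MSC replicate 1 and 25.2% against 14.4% without replicate 2. The lone vertebral library left was assumed to vary like the other groups. DESeq2 gave 3621 and 3105 genes, and limma-trend 3566 and 3263. Of 43 named genes that were called, 30 kept their call in every alternative run, and of 686 refits 61 lost the call and 0 reversed it. Leaving out regions with mostly repeat-masked windows, an alternative chosen after seeing the data, left 507, 109, 527 and 432 regions. The peak lists give no depth.

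With the replicate number as a block, 2921 and 2347 genes differed and the linked shares were 30.1%, 26.9%, 16.7% and 19.4%, and 10 of 44 BMP and TGF-beta genes were higher in vBM+P in place of 6. Libraries with the same number deviated together little, with r from −0.0382 to 0.159 (median 0.0311), over 0.1 in 1 of 15 pairs. The median r of libraries with other numbers was −0.0178. With so few libraries per tissue, this check cannot exclude that equal numbers stand for the same mouse. The numbers were not taken as pairs.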

Other observations

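Among the other vBM+A links, Cebpa, an adipogenic factor, was called higher (1.83, edgeR adjusted p = 0.00833), with mean levels of 3.26 TPM in femoral and 3.02 in vertebral marrow MSCs, but 0.98 in A-MSCs and 0.07 in P-MSCs. Among the other fBM+P links, Robo2, a receptor for SLIT ligands, was called higher (adjusted p = 0.00339) although its level was at most 0.33 TPM in any library and it was listed at 0 in all A-MSC libraries. Mmp13, a collagenase with an fBM+P region 9.05 kb upstream, ranged from 46.5 to 336 TPM between the 2 vBM-MSC libraries and did not pass (1.05, adjusted p = 0.122).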
